A study of Mus musculus with 6 samples.

Results

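The 10 genes described here are Foxo1, Foxo3, Txnip, Pdk4, Sesn1, Sesn3, Bcl6, Ccng2, Pik3ip1 and Klf15, of which 2 encode FoxO transcription factors and 8 are known as FoxO targets or fasting-responsive genes. They were taken by symbol from 32719 genes counted in 6 RNA-seq libraries of mouse jugular-nodose ganglia, where vagal sensory neurons have their cell bodies. The treated group has 3 libraries, which by title and protocol came from male C57BL/6J mice, labelled WT, with subcutaneous osmotic pumps delivering S961 in PBS at 10 nmol per week over 2 weeks. The control group has 3 libraries from mice whose pumps held PBS. S961 is a peptide that blocks the insulin receptor. All 6 libraries carry the treatment label S961, so the control group rests on the titles and the protocol. Age is not given in the sources used here, and neither is whether a library is 1 animal or a pool, so p-values measure the spread between these samples. S961 was given to the whole animal, and insulin action in the ganglia was not measured.

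When insulin binds its receptor, PI3-kinase and AKT are activated, AKT phosphorylates FoxO factors, and the phosphorylated factors leave the nucleus. In fasting or insulin lack FoxO factors stay nuclear and raise genes that spare glucose, restrain growth signalling and slow the cell cycle. Several of these genes also answer to other signals: Klf15 and Pdk4 to glucocorticoids, Pdk4 to fatty acids through PPAR receptors, and Txnip to glucose through the factors MondoA and ChREBP.

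The libraries held 12898607 to 33522486 gene counts in the treated group and 14844384 to 25749857 in the controls. All 10 genes passed the low-count filter with the lowest count, 132 for Klf15 in control replicate 3, carrying a counting error of 8.70%. Treated replicate 3, the smallest library, stood apart, with correlations across genes of 0.920 to 0.944 with the other libraries, whereas each of the others reached at least 0.987 with another library. By its source and tissue labels the material would be spinal cord, whereas the labels for cell type and cell line give jugular-nodose ganglia. The jugular factor Prdm12 had 59.5 to 116 CPM (gene counts scaled to a library of 1000000) in treated and 37.7 to 51.9 CPM in control libraries. The 11 spinal cord markers summed to 40.3 to 50.7 CPM in treated and 53.5 to 55.5 CPM in control libraries. Most of that sum was the choline transporter Slc5a7, at 24.2 to 36.8 CPM in treated and 40.4 to 42.0 CPM in control libraries, and the astrocyte channel Aqp4, at 10.7 to 12.3 CPM in treated and 9.63 to 12.8 CPM in control libraries. The astrocyte gene Gfap reached 3.90 CPM, the oligodendrocyte genes Olig1, Olig2 and Mog and the motor neuron gene Mnx1 at most 0.338 CPM, and the 4 inhibitory neuron genes of the list at most 0.716 CPM in any library. The nodose markers P2rx2, Glp1r and Gpr65 summed to 110 to 224 CPM in treated and 290.3 to 301 CPM in control libraries (0 of 3 with a higher treated mean), and the jugular markers summed to 343 to 534 CPM in treated and 252 to 314 CPM in control libraries (5 of 5 with a higher treated mean). Markers of sympathetic neurons and glomus cells summed to 58.6 to 92.2 CPM in treated and 126 to 144 CPM in control libraries (0 of 6 with a higher treated mean). In bulk tissue, fewer cells of a type and less RNA per cell cannot be told apart.

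No gene of the set passed the test between treated and control ganglia. Foxo3 and Bcl6 were the 2 genes of the set whose treated libraries all lay above all controls, and the jugular, nodose and sympathetic marker sums also separated all treated from all control libraries. Of the single markers, the jugular Trpv1 and Mrgprd and the sympathetic Slc18a1, Slc18a2 and Slc6a2 overlapped between groups, and the others of these lists did not. The part of jugular, nodose and sympathetic cells in the Foxo3 and Bcl6 values was not tested. Pdk4 and Txnip had the largest fold changes, but these came from treated replicates 2 and 3, and treated replicate 1 lay near or below the controls. Klf15 and Foxo1 were highest in treated replicate 2, and the sestrins, Ccng2 and Pik3ip1 had log2 fold changes between -0.14 and 0.14, with overlapping groups. Of the 10 genes, 0 had an edgeR quasi-likelihood adjusted p under 0.05, as for all 16019 genes tested (0% called). At an unadjusted p under 0.05 there were 2 of the 10 genes, Foxo3 and Bcl6, both higher, against 6.67% of all genes tested in either direction, 4.00% higher and 2.67% lower. No overlap between groups was seen for the same 2 of 10 genes, where 7.07% of all genes tested had every treated library above every control, 7.63% had every one below and 14.7% had either. These shares of a set of 10 rest on 2 genes. Log2 fold changes (treated over control) were positive for 9 and negative for 1 of the 10, against 52.8% positive over all genes tested. The median of the 10 was 0.30, against a median of 0.02 over all genes tested. With treated replicate 1 as the only treated library the median of the 10 was -0.04.

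Promoter sequence was searched for the FoxO element GTAAACA and the related insulin response element CAAAACA on both strands, in the RefSeq windows (GRCm38.p6) from 250 bases before to 50 after each start. All 10 genes matched, with 12 windows. The FoxO element was in 2 of the 12, against 3.65% of all 32851 windows, and the insulin response element in 1 of the 12, against 6.28%, with no overlap between matches. The 3 windows are printed to show where the letters lie, in lower case with the match in capitals. The Txnip window (chr3:96557707-96558006, plus strand) holds GTAAACA starting 121 bases before the start. The Sesn1 window of 1 of its annotated starts (chr10:41810324-41810623, plus strand) holds the reverse complement TGTTTAC from 22 bases after the start. The Ccng2 window (chr5:93267323-93267622, plus strand) holds CAAAACA 16 bases before the start.
Txnip: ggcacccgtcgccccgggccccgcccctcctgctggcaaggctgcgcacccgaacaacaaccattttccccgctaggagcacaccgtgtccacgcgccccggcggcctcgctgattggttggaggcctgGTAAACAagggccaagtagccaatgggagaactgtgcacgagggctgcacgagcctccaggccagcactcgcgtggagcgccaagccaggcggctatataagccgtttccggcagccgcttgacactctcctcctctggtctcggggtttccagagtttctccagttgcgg
Sesn1: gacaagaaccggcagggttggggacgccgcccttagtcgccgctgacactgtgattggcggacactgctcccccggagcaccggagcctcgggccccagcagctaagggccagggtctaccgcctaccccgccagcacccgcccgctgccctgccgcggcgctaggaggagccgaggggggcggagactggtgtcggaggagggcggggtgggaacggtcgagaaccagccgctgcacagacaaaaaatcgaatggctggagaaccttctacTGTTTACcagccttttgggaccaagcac
Ccng2: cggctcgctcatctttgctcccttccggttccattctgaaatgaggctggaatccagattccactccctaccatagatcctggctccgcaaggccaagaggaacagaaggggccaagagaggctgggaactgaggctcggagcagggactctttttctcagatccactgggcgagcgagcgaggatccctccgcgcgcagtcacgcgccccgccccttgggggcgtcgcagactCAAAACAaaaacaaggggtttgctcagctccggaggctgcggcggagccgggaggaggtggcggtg
A match describes the letters and is not a measured binding site. All 3 genes overlapped between groups, as given for each gene in its own account. Treated replicates 2 and 3 were above every control for Txnip and, by a small margin in replicate 2 (39.9 against 39.3 CPM), for Sesn1. For Ccng2 no treated library was above every control.

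Levels of different genes were compared as CPM per kilobase of exon. Txnip had the highest mean level per kilobase in both groups, at 25.1 ± 10.6 in treated and 15.5 ± 2.27 in control ganglia (SD, n = 3 each). Foxo3 followed at 17.7 ± 0.996 in treated and 13.9 ± 1.34 in control ganglia, and Pik3ip1 at 15.1 ± 1.03 in treated and 13.7 ± 0.947 in control ganglia. In the controls these 3 did not differ beyond their spread. Sesn1 came next, at 9.89 ± 1.03 in treated and 9.29 ± 0.866 in control ganglia. In the controls Sesn3 (4.72 ± 0.253), Pdk4 (4.13 ± 0.407), Klf15 (4.02 ± 0.808), Foxo1 (3.31 ± 0.792), Ccng2 (2.78 ± 0.505) and Bcl6 (2.43 ± 0.657) formed the lower group, in which neighbours differed by less than the sum of their SDs. The order depends on the length used: per kilobase of the longest transcript Pik3ip1 came first in the controls, at 22.8 ± 1.57, before Txnip at 17.1 ± 2.51. On that scale Sesn3 (7.90 ± 0.424) stood apart from the lower group, between Sesn1 (9.71 ± 0.905) and Klf15 (4.53 ± 0.908). Bcl6 (4.15 ± 1.12) was then no longer lowest in mean, with Ccng2 at 3.34 ± 0.608 and Foxo1 at 3.31 ± 0.792. Foxo3 exceeded Foxo1 per base of exon in every library, by a ratio of 5.64, 3.68 and 4.65 in the treated and 5.203, 3.47 and 4.25 in the control replicates 1, 2 and 3. Compared between treated and control libraries, the ratio had a two-sided exact permutation p = 0.7. The excess of Foxo3 over Foxo1 itself was not tested.

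**Figure D1:**
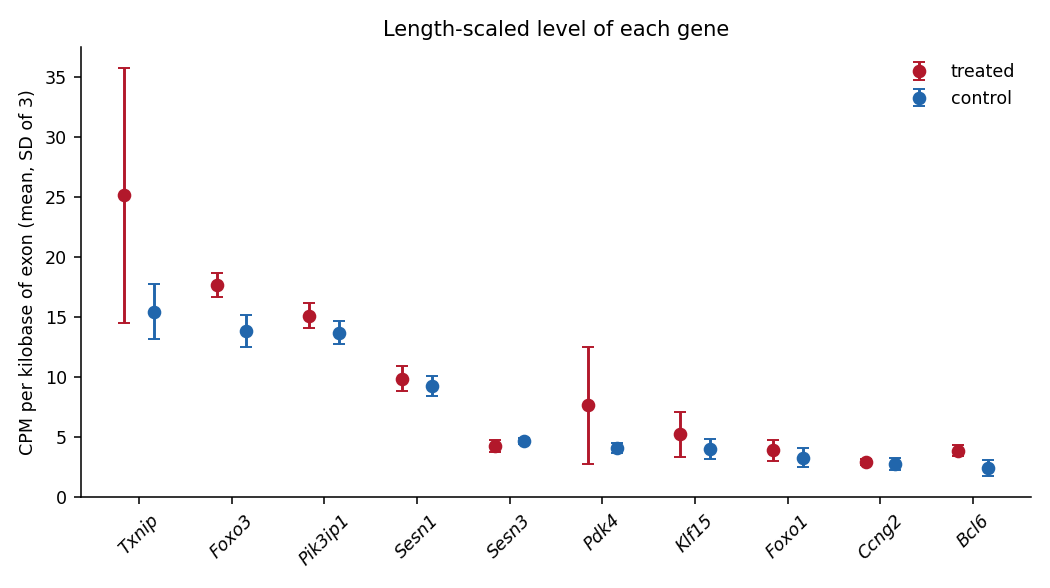
Length-scaled level of each gene, in CPM per kilobase of exon on the vertical axis, as mean (point) and SD (bar) of 3 treated and 3 control libraries, with genes ordered by their control mean. Txnip, Foxo3, Pik3ip1 and Sesn1 stand above the other 6 genes, and the widest bars are those of Txnip (25.1 ± 10.6) and Pdk4 (7.67 ± 4.86) in treated ganglia.

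Foxo3 (ENSMUSG00000048756, chromosome 10, 42181841 to 42276755, minus strand, GRCm38) encodes a FoxO factor of neurons and many other cells. It had 128, 132 and 142 CPM in treated replicates 1, 2 and 3, against 111, 111 and 93.4 CPM in control replicates 1, 2 and 3. Every treated library was above every control. The means were 134 ± 7.54 CPM in treated and 105 ± 10.1 CPM in control ganglia (SD, n = 3 each), a log2 fold change of 0.35 ± 0.10 (SE), or 1.28-fold. The unadjusted edgeR p was 0.00879 and the adjusted p 0.655, and the gene ranked 214 by p among all genes tested. The two-sided exact permutation p was 0.1, the smallest that 3 against 3 can give. The gap did not rest on 1 library, as the log2 fold change ran from 0.27 to 0.39 with each library left out and was 0.28 with treated replicate 1 alone against the controls. The jugular marker sum was likewise above all controls in each treated library. It was 494, 343 and 534 CPM in treated replicates 1, 2 and 3, against 252 to 314 CPM in controls. The nodose and sympathetic marker sums were below all controls in each treated library. The part of these cells in the Foxo3 values was not tested.

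Foxo1 (ENSMUSG00000044167, chromosome 3, 52268336 to 52353221, plus strand) encodes the FoxO factor best known for the insulin response of liver and beta cells. It had 25.9, 41.0 and 35.1 CPM in treated replicates 1, 2 and 3, against 24.4, 36.6 and 25.1 CPM in control replicates 1, 2 and 3. The groups overlapped, with control replicate 2 above 2 of the treated libraries. Its log2 fold change was 0.24 ± 0.22 (SE; edgeR adjusted p = 0.800), and -0.15 with treated replicate 1 alone. It was 0.07 without treated replicate 2, 0.13 without control replicate 1, 0.15 without control replicate 3, 0.39 without treated replicate 1 and 0.45 without control replicate 2. Schwann cell markers, of which 5 of 5 had a higher mean in treated ganglia, were highest in the 3 libraries where Foxo1 was highest: their summed level was 1243, 1888 and 1994 CPM in the treated and 1009, 1616 and 1064 CPM in the control replicates 1, 2 and 3. Their part in the Foxo1 values was not tested. An antisense gene, Gm20402, shares 674 bases of Foxo1 exon on the other strand, and the strand setting of the counting is not given in the sources used here.

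Pdk4 (ENSMUSG00000019577, chromosome 6, 5483351 to 5496309, minus strand) encodes a kinase that shuts off pyruvate dehydrogenase in fasting, so that glucose carbon is spared. It had 10.9, 25.1 and 44.9 CPM in treated replicates 1, 2 and 3, against 15.4, 15.2 and 12.8 CPM in control replicates 1, 2 and 3. Treated replicates 2 and 3 were above every control and treated replicate 1 was below every control. The treated libraries spanned a 4.12-fold range and the controls a 1.20-fold range. The log2 fold change was 0.88 ± 0.48 (SE; edgeR adjusted p = 0.742). It was 0.31 without treated replicate 3 and -0.41 with treated replicate 1 alone, so its size and direction depended on 2 libraries. The other pyruvate dehydrogenase kinases, named after their values were seen, had log2 fold changes of 0.22 ± 0.12 (Pdk1), -0.12 ± 0.09 (Pdk2) and -0.14 ± 0.12 (Pdk3), with edgeR adjusted p of 0.742, 0.773 and 0.785. Every treated library was above every control for Pdk1 and below every control for Pdk2, while Pdk3 overlapped. Of all genes tested, 14.7% had no overlap in either direction.

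Txnip (ENSMUSG00000038393, chromosome 3, 96557957 to 96561883, plus strand) encodes an arrestin-like protein that binds thioredoxin and restrains glucose uptake. It had 43.1, 83.6 and 109 CPM in treated replicates 1, 2 and 3, against 45.6, 56.4 and 43.0 CPM in control replicates 1, 2 and 3. As with Pdk4, treated replicates 2 and 3 were above every control, while treated replicate 1 lay within the control range. The log2 fold change was 0.69 ± 0.33 (SE; edgeR adjusted p = 0.742). It was 0.98 without treated replicate 1, 0.39 without treated replicate 3 and -0.17 with treated replicate 1 alone. An antisense gene, Gm15441, shares 606 bases (19.4%) of Txnip exon, so reads of the 2 genes may not be told apart.

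Klf15 (ENSMUSG00000030087, chromosome 6, 90462576 to 90475238, plus strand) encodes a transcription factor of fasting metabolism in liver, muscle and fat. It had 10.3, 20.6 and 13.0 CPM in treated replicates 1, 2 and 3, against 11.3, 13.4 and 8.92 CPM in control replicates 1, 2 and 3. Only treated replicate 2 was above every control. Klf15 had a log2 fold change of 0.38 ± 0.28 (SE; edgeR adjusted p = 0.771), of 0.04 without treated replicate 2, of 0.24 without control replicate 3 and of 0.58 without treated replicate 1.

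Sums of fat cell, macrophage, neutrophil and fibroblast markers were highest in treated replicate 3, as were Pdk4 and Txnip. The fat cell sum and Pdk4 were both highest in treated replicate 3, next in treated replicate 2 and then in control replicate 1. Both were lowest in treated replicate 1, and control replicates 2 and 3 came in opposite order. In treated replicate 2 the fat cell and neutrophil sums lay above the control range and the macrophage and fibroblast sums within it. In control replicate 2, the control highest in Txnip, each of these 4 sums was the lowest of the controls. Of the fat cell markers, 10 of 10 had a higher mean in treated ganglia, and their summed level was 8.72, 61.5 and 506 CPM in treated replicates 1, 2 and 3, against 12.3 to 40.2 CPM in controls. The sum was lowest of all 6 libraries in treated replicate 1, where the fat cell gene Adipoq had 3 counts and the brown fat gene Ucp1 had 12, against 1 and 2 counts in control replicate 2, the lowest control. Macrophage markers (9 of 9 with a higher mean) summed to 59.9, 107 and 453 CPM in treated replicates 1, 2 and 3, against 46.2 to 115 CPM in controls, and neutrophil markers (8 of 10) to 1.61, 13.6 and 49.2 CPM, against 1.00 to 12.4 CPM in controls. Fibroblast markers (6 of 6) summed to 476, 739 and 2138 CPM in treated replicates 1, 2 and 3, against 658 to 1136 CPM in controls. No marker of these 4 lists was at 0 in all libraries. Skeletal muscle markers (1 of 8 with a higher treated mean) summed to 8.50 to 36.4 CPM in treated and 18.0 to 158 CPM in control libraries. Schwann cell markers (5 of 5) summed to 1243, 1888 and 1994 CPM in the treated and 1009, 1616 and 1064 CPM in the control replicates 1, 2 and 3. The part of these cells in the Pdk4, Txnip and Klf15 values was not tested. Values above all controls in treated replicates 2 and 3 but not in treated replicate 1 were seen for 3 of the 10 genes, Pdk4, Txnip and Sesn1, and for 8.45% of all genes tested. That pattern was picked after the values were seen.

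**Figure D2:**
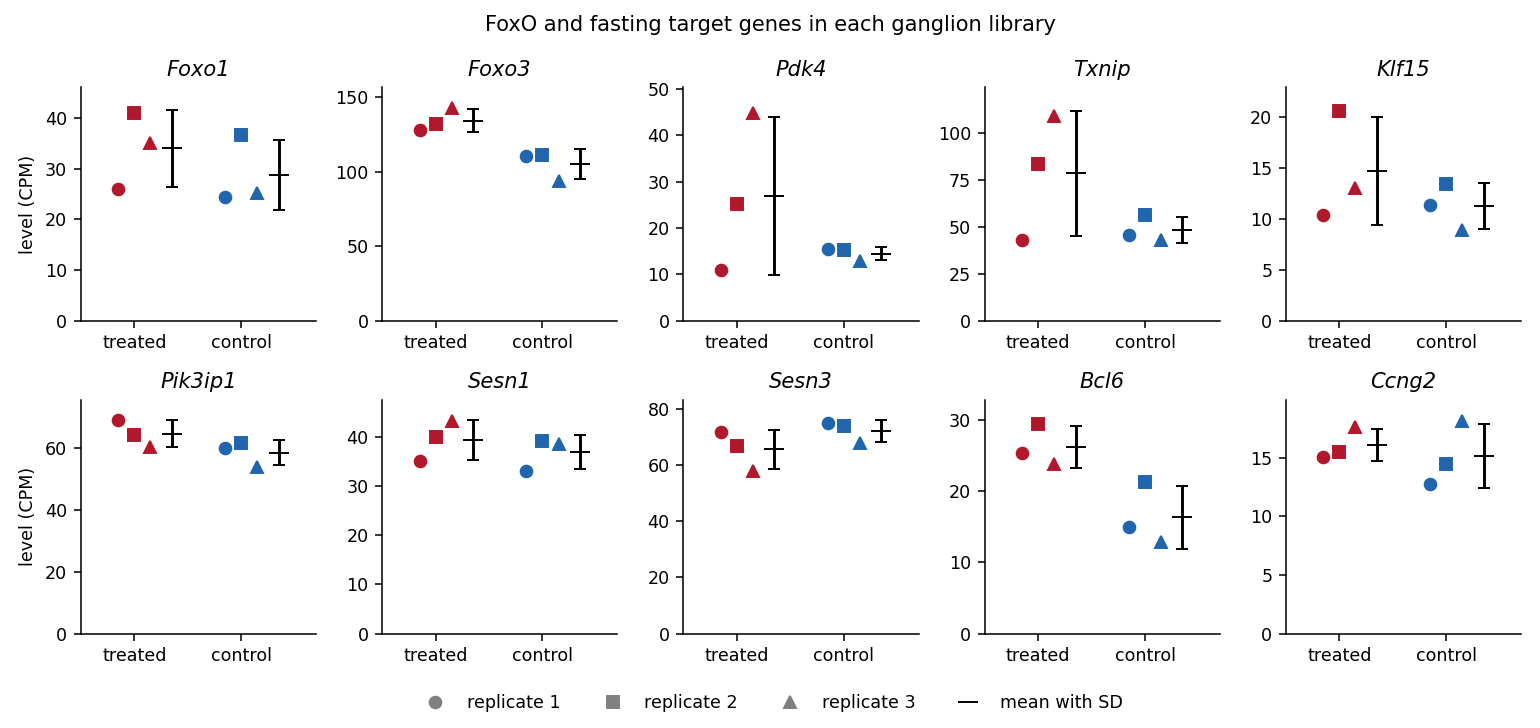
Level of each of the 10 genes in CPM (vertical axes, each from 0) in 3 treated and 3 control libraries, with 1 symbol per replicate number and black bars for the mean with SD. Foxo3 and Bcl6 are the 2 panels where all treated points lie above all controls, and in the Pdk4 panel the treated points run from 10.9 to 44.9 CPM around controls of 12.8 to 15.4 CPM.

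**Figure D3:**
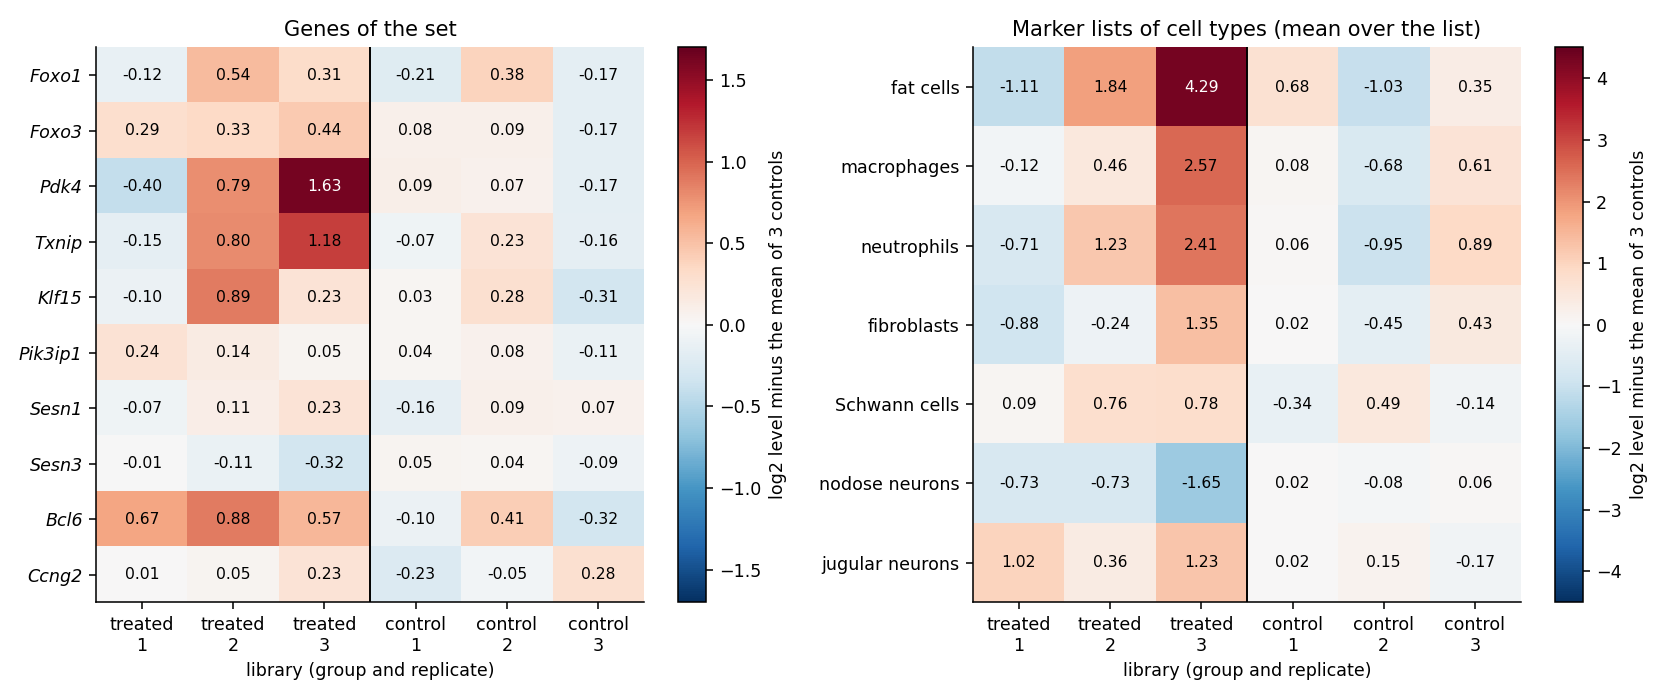
Log2 level of each gene in each library minus the mean of the 3 controls (left), and the same averaged over marker lists of cell types (right, with a wider colour scale). Pdk4 reads -0.40, 0.79 and 1.63 and the fat cell list -1.11, 1.84 and 4.29 in treated replicates 1, 2 and 3, whereas Foxo3 and Bcl6 are positive in all 3 treated libraries.

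Pik3ip1 (ENSMUSG00000034614, chromosome 11, 3330401 to 3342971, plus strand) encodes a membrane protein that inhibits PI3-kinase, upstream of AKT and FoxO. It had 69.2, 64.3 and 60.5 CPM in treated replicates 1, 2 and 3, against 60.1, 61.7 and 54.0 CPM in control replicates 1, 2 and 3. Treated replicate 3 lay below control replicate 2, so the groups overlapped. For Pik3ip1 the log2 fold change was 0.14 ± 0.09 (SE; edgeR adjusted p = 0.754). It was 0.24 with treated replicate 1 alone and 0.080 without that library, and 0.085 without control replicate 3. Gm12592, on the other strand, shares 91 bases of Pik3ip1 exon.

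Sesn1 (ENSMUSG00000038332, chromosome 10, 41809935 to 41908424, plus strand) and Sesn3 (ENSMUSG00000032009, chromosome 9, 14275067 to 14333101, plus strand) encode sestrins, stress-induced proteins that hold back the growth kinase mTORC1. Sesn1 had 35.1, 39.9 and 43.2 CPM in treated replicates 1, 2 and 3, against 33.0, 39.3 and 38.7 CPM in control replicates 1, 2 and 3. Sesn3 had 71.7, 66.7 and 57.8 CPM in treated replicates 1, 2 and 3, against 74.7, 73.9 and 67.6 CPM in control replicates 1, 2 and 3. Both overlapped between groups, and Sesn3 was the 1 gene of the set with a negative log2 fold change, at -0.14 ± 0.10 (SE; edgeR adjusted p = 0.774), while that of Sesn1 was 0.09 ± 0.12 (edgeR adjusted p = 0.868). The ratio of Sesn3 to Sesn1 per base of exon was 0.534, 0.436 and 0.349 in the treated and 0.590, 0.491 and 0.456 in the control replicates 1, 2 and 3 (two-sided exact permutation p = 0.4). Without treated replicate 3 the log2 fold change of Sesn3 was -0.06, and without treated replicate 1 it was -0.22; that of Sesn1 ran from 0.01 without control replicate 1 to 0.15 without treated replicate 1. Sesn3 was lowest in treated replicate 3, where the summed nodose markers (110 CPM) and the summed pan-neuronal markers (7113 CPM, against 9019 and 9595 CPM in the other treated and 8783 to 9556 CPM in the control libraries) were also lowest. Of the pan-neuronal markers 3 of 8 had a higher treated mean. Rbfox3 of that list was highest in treated replicate 3, at 131 CPM, against 94.6 to 99.7 CPM in controls. Each other marker of the list was lowest in treated replicate 3. The part of nodose and other neurons in the Sesn3 values was not tested.

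Bcl6 (ENSMUSG00000022508, chromosome 16, 23965052 to 23988852, minus strand) encodes a transcriptional repressor of immune cells, liver and developing neurons. It had 25.4, 29.4 and 23.7 CPM in treated replicates 1, 2 and 3, against 14.9, 21.2 and 12.8 CPM in control replicates 1, 2 and 3. Every treated library was above every control, and the closest pair was treated replicate 3 and control replicate 2. The means were 26.2 ± 2.95 CPM in treated and 16.3 ± 4.40 CPM in control ganglia (SD, n = 3 each), 1.60-fold by a log2 fold change of 0.68 ± 0.20 (SE). The unadjusted edgeR p was 0.00983 and the adjusted p 0.660, and the two-sided exact permutation p was 0.1, the smallest possible. The log2 fold change ran from 0.53 to 0.91 with each library left out and was 0.63 with treated replicate 1 alone. That library had the lowest fat cell and fibroblast sums of all 6, while its jugular sum (494 CPM) was above all controls and its nodose (209 CPM) and sympathetic (91.6 CPM) sums below all controls. The part of these cells in the Bcl6 values was not tested.

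Ccng2 (ENSMUSG00000029385, chromosome 5, 93267257 to 93276231, plus strand) encodes an atypical cyclin linked to cell cycle arrest. It had 15.1, 15.5 and 17.7 CPM in treated replicates 1, 2 and 3, against 12.8, 14.5 and 18.2 CPM in control replicates 1, 2 and 3. The controls spanned the treated values on both sides. Ccng2 had a log2 fold change of 0.09 ± 0.16 (SE; edgeR adjusted p = 0.912), of -0.02 without control replicate 1, of 0.02 without treated replicate 3, of 0.05 without control replicate 2 and of 0.23 without control replicate 3.

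**Figure D4:**
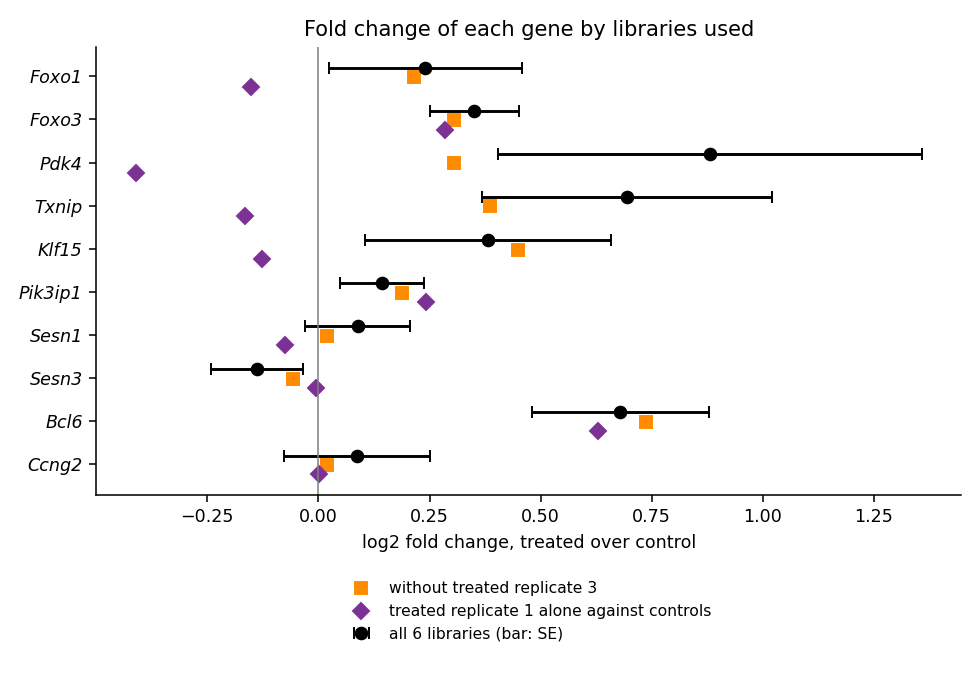
Log2 fold change (treated over control, horizontal axis) of each gene from all 6 libraries with its SE, without treated replicate 3, and with treated replicate 1 alone against the 3 controls. Foxo3 (0.35, 0.31 and 0.28) and Bcl6 (0.68, 0.74 and 0.63) stay in place under all 3, while Pdk4 moves over 0.88, 0.31 and -0.41.

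The wider pathway was read from 5 lists, none of which had a gene called by edgeR with the low-count filter. Over all genes tested 52.8% had a log2 fold change above 0, the share to set beside the counts of each list. Of 19 genes for FoxO factors and their control by insulin, 11 were above and 8 below 0 in log2 fold change, and the median was 0.05. Of these 19, 2 were higher (against 4.00% of all genes tested) and 0 lower (against 2.67%) at an unadjusted p under 0.05. The median was 0.02 without treated replicate 3, without treated replicate 2 or without control replicate 3, and -0.0050 with treated replicate 1 alone. The PI3-kinase regulatory subunit Pik3r1 had 317, 324 and 338 CPM in treated replicates 1, 2 and 3, against 231, 278 and 218 CPM in control replicates 1, 2 and 3, without overlap (edgeR adjusted p = 0.621). Irs2, the insulin receptor substrate that FoxO factors are known to induce in liver, had 66.2, 87.3 and 82.3 CPM in treated replicates 1, 2 and 3, against 59.0, 66.6 and 57.4 CPM in control replicates 1, 2 and 3. Treated replicate 1 was just below control replicate 2 for Irs2, whose log2 fold change was 0.36 ± 0.12 (SE). Foxo4, a further FoxO factor, was at 9.88, 15.2 and 20.1 CPM in treated replicates 1, 2 and 3, against 10.7, 11.5 and 8.38 CPM in control replicates 1, 2 and 3, so treated replicate 1 lay among the controls, as it did for Txnip.

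Of 29 other FoxO targets 26 were tested, of which 16 lay above and 10 below a log2 fold change of 0 (median 0.12), and 2 were higher (against 4.00% of all genes tested) and 0 lower (against 2.67%) at an unadjusted p under 0.05. The median was 0.04 without control replicate 3 and -0.04 with treated replicate 1 alone. The 2 higher genes were the growth arrest gene Gadd45a and the cell cycle inhibitor Cdkn1a, both also known as p53 targets. Gadd45a had 22.5, 32.6 and 29.2 CPM in treated replicates 1, 2 and 3, against 11.6, 14.0 and 14.5 CPM in control replicates 1, 2 and 3, a log2 fold change of 1.07 ± 0.17 (SE; edgeR adjusted p = 0.318). Cdkn1a had 25.8, 39.7 and 30.1 CPM in treated replicates 1, 2 and 3, against 15.4, 19.6 and 15.5 CPM in control replicates 1, 2 and 3 (0.92 ± 0.19; edgeR adjusted p = 0.568). Both were without overlap, and both were called by the DESeq2 Wald test (adjusted p = 0.00018 and 0.00995), which called no gene of the set of 10 and 0.556% of all genes tested. Both were also called by edgeR without the low-count filter (adjusted p = 0.0059 and 0.031), which called no gene of the set of 10 and 0.0941% of the 27618 genes then tested. The jugular, nodose and sympathetic marker sums likewise separated all treated from all control libraries. The part of those cells in the values of Gadd45a, Cdkn1a and the other list genes was not tested. The cell death gene Bcl2l11 overlapped, at 6.75, 9.58 and 16.5 CPM in treated replicates 1, 2 and 3, against 4.30, 8.15 and 6.08 CPM in control replicates 1, 2 and 3.

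Of 20 PPAR and fasting fat-use genes 19 were tested, of which 14 lay above and 5 below a log2 fold change of 0. The median was 0.16, or 0.05 once treated replicate 3 was left out, and 1 gene was higher (against 4.00% of all genes tested) and 0 lower (against 2.67%) at an unadjusted p under 0.05. That gene was the phosphatidate phosphatase Lpin1, at 108, 107 and 109 CPM in treated replicates 1, 2 and 3, against 85.8, 94.0 and 94.4 CPM in control replicates 1, 2 and 3 (0.24 ± 0.08; edgeR adjusted p = 0.685). Ppara, the fatty acid receptor that induces Pdk4 in liver, had 4.55, 7.21 and 10.4 CPM in treated replicates 1, 2 and 3, against 4.07, 5.42 and 4.60 CPM in control replicates 1, 2 and 3. The mitochondrial carrier Ucp3 of muscle and brown fat had 0.744, 1.11 and 6.36 CPM in treated replicates 1, 2 and 3, against 0.631, 1.04 and 0.473 CPM in control replicates 1, 2 and 3. Ppara and Ucp3 were highest in treated replicate 3, the library highest in fat cell markers, whose part was not tested.

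Of 14 genes listed as glucocorticoid-induced 13 lay above and 1 below a log2 fold change of 0 (median 0.48). The list includes the gene of the glucocorticoid receptor itself, which is among the 13. Of the 14, 3 were higher (against 4.00% of all genes tested) and 0 lower (against 2.67%) at an unadjusted p under 0.05. The median was 0.30 without treated replicate 3 and 0.0012 with treated replicate 1 alone, the library whose fat cell sum was 8.72 CPM, against 61.5 and 506 CPM in treated replicates 2 and 3. The part of those cells in this list was not tested. The clock gene Per1 had 60.0, 96.6 and 58.1 CPM in treated replicates 1, 2 and 3, against 49.2, 50.2 and 37.4 CPM in control replicates 1, 2 and 3, without overlap (0.65 ± 0.22; edgeR adjusted p = 0.696). The EGF receptor inhibitor Errfi1 had 25.2, 22.8 and 24.4 CPM in treated replicates 1, 2 and 3, against 16.9, 19.4 and 15.6 CPM in control replicates 1, 2 and 3 (0.48 ± 0.12; edgeR adjusted p = 0.621), without overlap. The metal-binding Mt1 had 16.01, 23.6 and 30.1 CPM in treated replicates 1, 2 and 3, against 16.3, 15.3 and 15.6 CPM in control replicates 1, 2 and 3, so that treated replicate 1 lay among the controls.

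Of 10 genes for MondoA and thioredoxin partners of Txnip 9 lay above and 1 below a log2 fold change of 0 (median 0.14), and 2 were higher (against 4.00% of all genes tested) and 0 lower (against 2.67%) at an unadjusted p under 0.05. Mlxipl, which encodes ChREBP, the glucose-sensing factor that induces Txnip, had 2.53, 3.94 and 10.7 CPM in treated replicates 1, 2 and 3, against 1.38, 0.731 and 1.22 CPM in control replicates 1, 2 and 3. Its groups did not overlap (log2 fold change 2.36 ± 0.59, SE; edgeR adjusted p = 0.621), and the DESeq2 Wald test called it (adjusted p = 0.0205). Mlxipl was highest in treated replicate 3, the library highest in fat cell markers, and the part of fat cells in its values was not tested. The glucose transporter Slc2a1 had 38.4, 53.2 and 58.5 CPM in treated replicates 1, 2 and 3, against 31.9, 38.5 and 41.9 CPM in control replicates 1, 2 and 3, with treated replicate 1 below control replicates 2 and 3. The Txnip relative Arrdc2 had 8.84, 11.04 and 13.3 CPM in treated replicates 1, 2 and 3, against 8.48, 8.69 and 7.77 CPM in control replicates 1, 2 and 3.

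**Figure D5:**
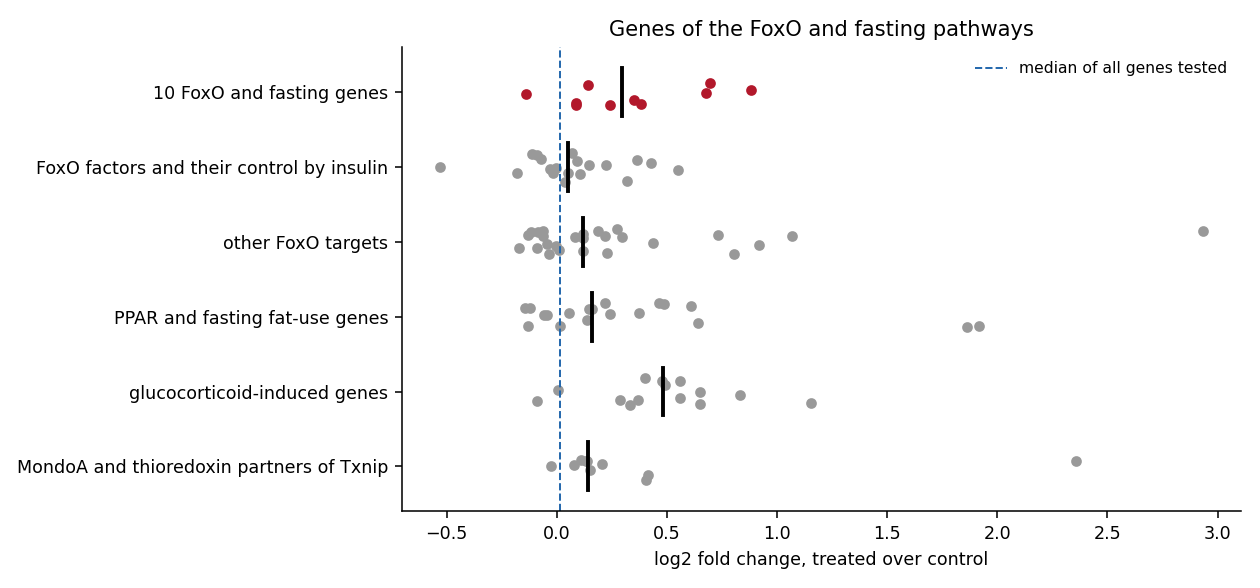
Log2 fold change (treated over control, horizontal axis) of the 10 genes and of each tested gene of 5 pathway lists, with 1 point per gene, black bars at the list medians and a dashed line at the median of all genes tested (0.02). The medians are 0.30 for the 10 genes and 0.05, 0.12, 0.16, 0.48 and 0.14 for the lists from top to bottom, and no plotted gene was called by edgeR with the low-count filter.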

How the data were processed

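Per the labels' protocols, the 3 treated and 3 control libraries were built with a strand-specific low-input kit from roughly 6 ng of RNA each and sequenced to a read length of 100 bases, and RNA integrity numbers spanned 6.6 to 9.1. Each library's deposited table holds the authors' raw read counts over the exons of each gene. The submitters' processing notes name bcl2fastq 2.20, STAR 2.7.7a, DESeq2 and edgeR with build mm10; which program counted reads, with which annotation and strand setting, is not given in the sources used here. Of 32719 genes, 32663 matched GENCODE M21 (GRCm38), the source of coordinates and exon lengths.

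Counts were fitted with edgeR 4.0.16 (R 4.3.3): filterByExpr with a minimum count of 10, TMM scaling, robust quasi-likelihood F test, treated over control, Benjamini-Hochberg adjustment over all 16019 genes tested, threshold 0.05. SE is the log2 fold change divided by the square root of F. CPM are counts divided by the TMM-adjusted library size and multiplied by 1000000, and log2 levels used a prior count of 2. Exact permutation tests used log2 values. Alternatives were DESeq2 1.42.0 and limma 3.58.1 (voom), other scalings and filters, leaving out haemoglobin and small RNA genes, the replicate number as a block, and libraries left out. The fits were tested on simulated counts. Counting errors cover counting only.

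The 10 genes, the 5 pathway lists and the marker lists were chosen with earlier results of these data known. Named list genes are the 3 of each list with the smallest p at a mean of at least 1 CPM in a group. A nodose marker gene is not reported here and is left out of its list's sums.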

Additional observations from a re-analysis of the deposited data

How the results depend on the processing

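None of the 10 genes was called under any of the alternatives fitted with adjusted p, while 2 had an unadjusted p under 0.05. Over all genes 26 were called without the low-count filter, 89 by the DESeq2 Wald test, 9 by limma-voom with sample weights, 1 with the replicate block, 0 to 9 with 1 library left out and 70 with treated replicates 2 and 3 both left out. The median log2 fold change of the 10 genes stayed between 0.12 and 0.42 with 1 library left out, was 0.29 with the replicate block and -0.040 with treated replicates 2 and 3 both left out. That setting, in which the lone treated library is assumed to vary as the controls do, also turned Foxo1 (-0.15), Txnip (-0.17), Pdk4 (-0.41), Sesn1 (-0.076), Klf15 (-0.13), Foxo4 (-0.051) and Ppara (-0.047), and Ccng2 turned to -0.024 without control replicate 1 (-0.024 to 0.23 with 1 library left out). The cause was not tested, beyond these settings using fewer libraries. Other scalings and filters turned no gene named.

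The sources used here do not say whether the replicate numbers pair the samples. Deviations from the group means correlated across genes at 0.01, 0.56 and 0.49 for numbers 1, 2 and 3. Treated replicates 2 and 3 each correlated best with the control of the same number, and treated replicate 1 with control replicate 2 (0.25). Whether libraries of the same number share a batch was not tested. The replicate block changed no call among the 10 genes. Of the 10 log2 fold changes 3 lay more than 2 SE from 0.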
